A study of Mus musculus with 32 samples.

Results

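Cry1, Cry2, Ciart, Bhlhe40 and Bhlhe41, the genes of repressors that act on the activators of the mammalian clock, were described in mouse liver as 5 of the 55471 genes in the count table. They were listed by name, with earlier results of these data known, and no threshold on a value picked them. Of the names, 4 symbols stand in the deposited table of log2 values, and Bhlhe41, which that table does not list, was found in the counts by its gene identifier. The libraries came from polyadenylated liver RNA of 32 male mice of the inbred strain C3H/HeNCrl, all fed a high fat diet (HFD). Of these, 16 mice lived in a short light photoperiod (SL) and 16 in a long light photoperiod (LL), and each was sampled at zeitgeber time (ZT, hours on the light schedule) 0, 6, 12 or 18. The 8 groups were SL at ZT0, ZT6, ZT12 and ZT18 and LL at ZT0, ZT6, ZT12 and ZT18, with 4 mice each, so n = 4 per group and SDs are between mice. All groups thus shared the diet, strain and sex. The labels used here state neither the hours of light behind SL and LL, nor what event ZT0 marks, nor the ages of the mice.

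In the clock of mammalian cells, CLOCK or NPAS2 pairs with BMAL1 (the product of Arntl) and switches on genes that hold E-box sequences, among them those of their own repressors. The cryptochromes CRY1 and CRY2 bind this complex together with the PER proteins and block it, and in liver they also restrain glucagon and glucocorticoid signalling. CIART, also called CHRONO, binds BMAL1 and represses it separately. BHLHE40 and BHLHE41, also called DEC1 and DEC2, are helix-loop-helix proteins that occupy E-boxes themselves, and BHLHE40 is also a known target of hypoxia signalling.

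On GRCm38 with GENCODE M21 gene bounds, all 5 are protein-coding genes. Cry1 (ENSMUSG00000020038) lies on the minus strand of chromosome 10 from 85131700 to 85185064, and Cry2 (ENSMUSG00000068742) on the minus strand of chromosome 2 from 92403646 to 92434043. Ciart (ENSMUSG00000038550) lies on the minus strand of chromosome 3 from 95878503 to 95882251. The paralogs Bhlhe40 (ENSMUSG00000030103, plus strand, 108660629 to 108666925) and Bhlhe41 (ENSMUSG00000030256, minus strand, 145858243 to 145865558) are both on chromosome 6. Cry1 overlaps no other annotated gene, whereas the exons of Cry2, Bhlhe40 and Bhlhe41 share 295, 118 and 1280 bases with antisense loci, and Ciart lies within an antisense locus with which it shares no exon base. Over all 32 libraries these antisense loci held few reads, with 635 for the locus at Cry2, 449 at Ciart, 10 at Bhlhe40 and 25 at Bhlhe41. The genes themselves held 25119, 5388, 76226 and 633 reads, and Cry1 held 14063. No source used here says whether the counting used strand, so reads in the shared bases are uncertain, most of all for the sparse Bhlhe41.

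RefSeq start regions on GRCm38.p6, 250 bases before to 50 after the start site, were matched for 4 of the 5 genes, Bhlhe40 being the exception. They are shown because E-boxes are the sequences through which the clock activators and the BHLHE repressors act. Capitals mark the E-box CACGTG, the same letters on both strands, and a variant of it that reads AACGTG. Read from the opposite strand, this variant is CACGTT. All 4 windows are written from the minus strand, 5′ to 3′.
Cry1, chr10:85185005-85185304: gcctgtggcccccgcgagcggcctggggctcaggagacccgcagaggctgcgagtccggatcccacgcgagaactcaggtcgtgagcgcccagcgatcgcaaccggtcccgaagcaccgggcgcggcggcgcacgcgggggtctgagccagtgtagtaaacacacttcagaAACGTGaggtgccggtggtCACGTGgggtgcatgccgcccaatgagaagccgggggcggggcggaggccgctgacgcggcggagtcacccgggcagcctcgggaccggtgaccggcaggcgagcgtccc
Cry2, chr2:92434020-92434319: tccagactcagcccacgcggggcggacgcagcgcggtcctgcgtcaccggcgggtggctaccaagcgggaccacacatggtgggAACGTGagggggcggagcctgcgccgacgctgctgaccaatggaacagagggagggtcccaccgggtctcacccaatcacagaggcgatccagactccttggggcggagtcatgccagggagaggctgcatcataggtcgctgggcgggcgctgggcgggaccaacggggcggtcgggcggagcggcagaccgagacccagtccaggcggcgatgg
Ciart, chr3:95882179-95882478: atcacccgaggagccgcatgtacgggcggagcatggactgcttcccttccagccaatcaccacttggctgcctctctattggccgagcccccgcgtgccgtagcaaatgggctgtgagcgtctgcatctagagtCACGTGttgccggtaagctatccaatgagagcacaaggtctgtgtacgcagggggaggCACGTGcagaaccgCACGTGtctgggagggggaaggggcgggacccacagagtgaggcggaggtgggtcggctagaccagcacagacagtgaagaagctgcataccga
Bhlhe41, chr6:145865371-145865670: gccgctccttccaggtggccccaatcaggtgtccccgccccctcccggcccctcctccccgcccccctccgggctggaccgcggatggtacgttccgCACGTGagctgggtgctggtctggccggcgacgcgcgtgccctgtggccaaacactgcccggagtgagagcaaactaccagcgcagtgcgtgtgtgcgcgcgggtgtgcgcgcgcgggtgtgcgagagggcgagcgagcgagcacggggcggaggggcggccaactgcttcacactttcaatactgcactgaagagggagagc

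The Ciart window held 3 copies of CACGTG, starting 116, 58 and 44 bases before the start site. Cry1 held 1 copy 60 bases and an AACGTG 79 bases before its start, Bhlhe41 held 1 CACGTG 153 bases before, and Cry2 held only the AACGTG variant, 166 bases before. Among 32851 RefSeq windows of the same length, 7.15% held at least 1 CACGTG on either strand, 0.594% at least 2 and 29 windows (0.0883%) at least 3, while 4.68% held the variant. None of the 4 windows held a D-box (TTATGTAA or TTACATAA, in 0.938% of all windows), a ROR half-site (AGGTCA or TGACCT, 16.3%) or a cAMP response element (TGACGTCA, 1.79%). These are letters in short windows, and binding was not measured.

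Depth was 9095615 to 27462776 counted reads per library, 14456 genes were tested, and the hepatocyte markers had a mean sum between 115578 and 129736 CPM in every group, where CPM is a gene's reads scaled by the library's TMM-adjusted size, per megaread. The mean correlation of a library with its group mates lay between 0.981 and 0.989, except in LL ZT12 replicate 3, at 0.969. That library also held the highest Ciart and Bhlhe41 and the lowest Cry1 value of its group, and several results that use it are given with and without it. Of the lists for other cells, skeletal muscle markers (7 of 7 tested) summed to 0.58 to 12.9 CPM in SL groups and to 1.02 to 71.1 CPM in LL groups, with the most in LL ZT18 replicate 3 (197 CPM), and no listed marker was at 0 throughout. All 7 varied with time of day in LL (edgeR adjusted p below 0.05), as did 18.3% of all genes. None varied in the photoperiod by ZT interaction, where 32.7% of all genes and 3 of 8 hepatocyte markers did. In whole liver, fewer cells of a type cannot be told apart from less RNA per cell.

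The cryptochrome gene Cry1 came out on separate sides in the 2 photoperiods at all 4 ZTs. In SL livers it stood at 9.19, 6.75, 10.3 and 8.79 CPM at ZT0, 29.5, 35.1, 42.3 and 32.1 at ZT6, 50.3, 42.6, 54.2 and 50.1 at ZT12 and 20.4, 23.3, 20.9 and 21.3 at ZT18. LL livers had 35.1, 40.1, 31.001 and 41.3 CPM at ZT0, 13.8, 16.1, 12.5 and 12.6 at ZT6, 16.8, 14.6, 9.70 and 16.4 at ZT12 and 50.2, 43.0, 43.9 and 40.1 at ZT18. SL mice thus had least at ZT0 and most at ZT12, LL mice had least at ZT6 and ZT12 and most at ZT18, and at no ZT did the 4 SL values overlap the 4 LL values. The order of the 8 group means ran from SL ZT12, LL ZT18, LL ZT0 and SL ZT6, whose neighbours overlapped, through SL ZT18, then LL ZT12 and LL ZT6, which overlapped, to SL ZT0.

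Cry2, the second cryptochrome gene, moved within a narrower band. In SL livers the 4 mice had 71.4, 68.0, 57.3 and 57.9 CPM at ZT0, 50.4, 55.9, 55.0 and 49.3 at ZT6, 48.2, 46.6, 46.1 and 50.03 at ZT12 and 41.4, 31.6, 36.8 and 34.0 at ZT18. In LL livers they had 34.9, 39.5, 39.2 and 37.6 CPM at ZT0, 44.3, 43.6, 36.2 and 46.4 at ZT6, 49.7, 64.1, 48.4 and 58.7 at ZT12 and 48.4, 54.3, 50.9 and 59.5 at ZT18. The SL means descended through the 4 times, and the LL mean was lowest at ZT0 and highest at ZT12. Every neighbouring pair in the order of the 8 group means overlapped, although SL ZT0 (63.7 ± 7.11 CPM) and SL ZT18 (36.0 ± 4.24 CPM) at its ends did not.

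**Figure D1:**
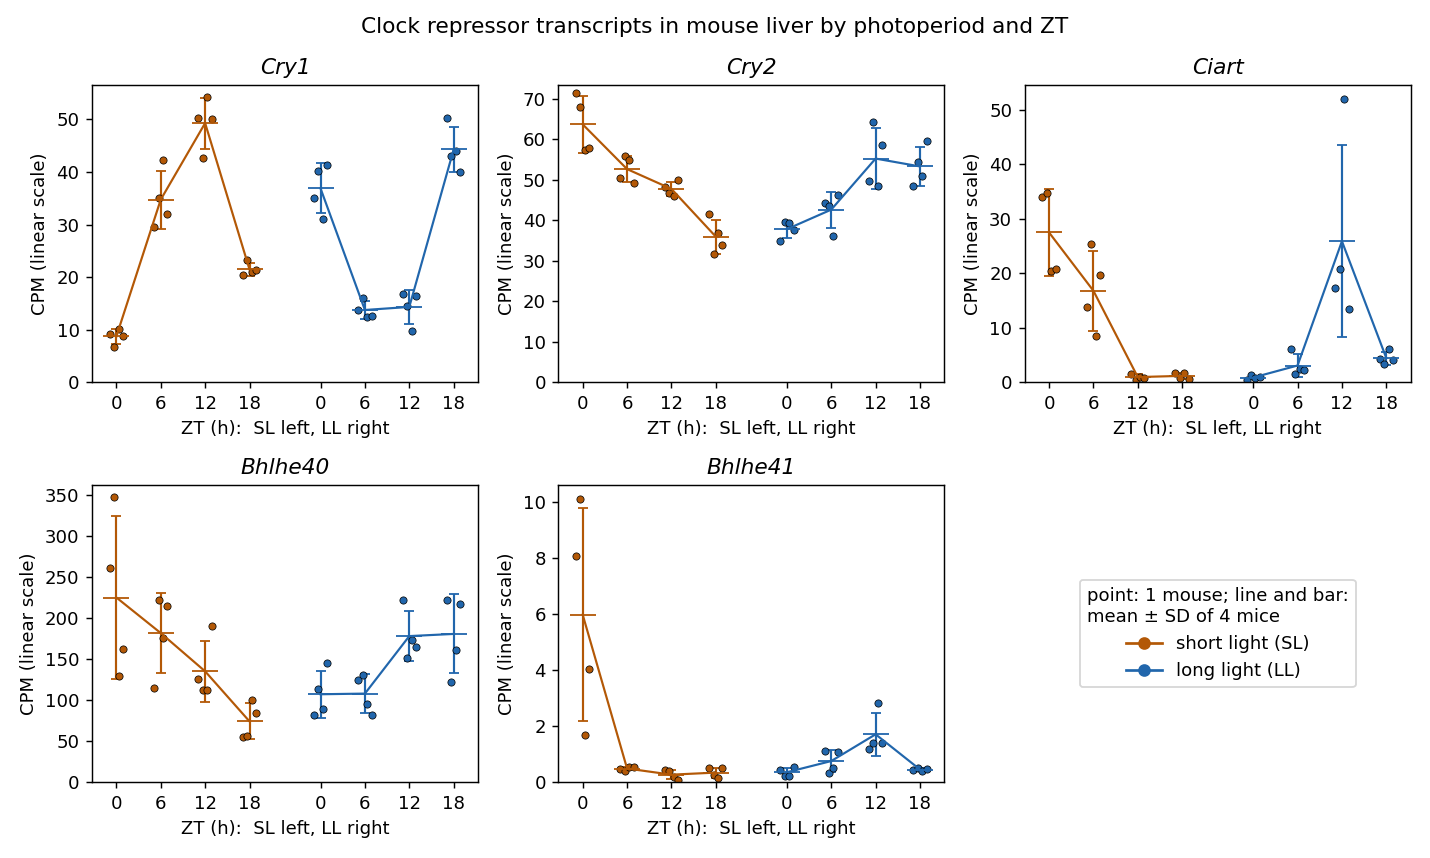
Level of each repressor transcript in CPM (y axis, linear, own scale per gene) against ZT in hours, with the 4 SL times left of the 4 LL times; points are mice, lines join group means and bars are the SD of 4 mice. Cry1 is lowest at ZT0 in SL (8.75 ± 1.47 CPM), where the other 4 genes are highest, and the single high LL mouse at ZT12 stands out for Ciart (51.9 CPM) and Bhlhe41 (2.84 CPM).

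Ciart had the widest relative swing. SL livers held 34.0, 34.7, 20.4 and 20.9 CPM at ZT0 and 13.7, 25.4, 8.44 and 19.7 at ZT6, but 1.64, 0.468, 0.971 and 0.879 at ZT12 and 1.75, 0.868, 1.69 and 0.559 at ZT18. LL livers held 0.513, 1.29, 0.770 and 1.06 CPM at ZT0, 6.22, 1.49, 2.44 and 2.28 at ZT6, 17.4, 20.8, 51.9 and 13.4 at ZT12 and 4.31, 3.37, 6.15 and 4.08 at ZT18. The highest SL mean was 27.8 times the lowest SL mean, and the highest LL mean 28.5 times the lowest LL mean. Low values rested on 6 to 32 reads per library in SL at ZT12 and ZT18 and on 7 to 22 in LL at ZT0. Without LL ZT12 replicate 3 the LL mean at ZT12 was 17.2 ± 3.68 CPM (SD, n = 3), against 25.9 ± 17.6 with it.

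Bhlhe40, the more abundant DEC gene, spread widely between mice of a group, most of all in SL at ZT0. SL livers had 261, 348, 130 and 162 CPM at ZT0, 115, 222, 176 and 214 at ZT6, 126, 112, 112 and 190 at ZT12 and 55.7, 56.4, 100.7 and 83.9 at ZT18. LL livers had 81.9, 113, 88.8 and 145 CPM at ZT0, 125, 131, 95.5 and 81.5 at ZT6, 222, 152, 174 and 165 at ZT12 and 223, 122, 161 and 218 at ZT18. Highest and lowest times did not overlap in SL (ZT0 and ZT18), and they did overlap in LL (ZT18 and ZT0). All neighbours in the order of the 8 group means overlapped.

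Bhlhe41, its paralog, was sparse and was highest at ZT0 in SL and at ZT12 in LL. SL livers had 8.07, 10.1, 1.68 and 4.06 CPM at ZT0 (23 to 151 reads) and then 0.458, 0.416, 0.527 and 0.558 at ZT6, 0.432, 0.390, 0.194 and 0.0676 at ZT12 and 0.492, 0.241, 0.147 and 0.497 at ZT18 (1 to 11 reads). LL livers had 0.440, 0.234, 0.220 and 0.531 CPM at ZT0, 1.10, 0.331, 0.502 and 1.10 at ZT6, 1.202, 1.40, 2.84 and 1.40 at ZT12 (19 to 63 reads) and 0.431, 0.512, 0.414 and 0.461 at ZT18. The 2 highest groups, SL ZT0 and LL ZT12, overlapped each other, and LL ZT12 lay above all the rest. Bhlhe41 passed the filter on low counts through these high groups, which bears on any count of members that changed.

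Compared per length, as fragments per kilobase of merged exons per megaread (FPKM), the levels over the 8 groups averaged 31.6 FPKM for Bhlhe40, 8.37 for Cry1, 7.69 for Cry2, 4.47 for Ciart and 0.193 for Bhlhe41. Bhlhe40 was above Bhlhe41 in 32 of 32 mice, by 46.2-fold to 4022-fold, the last against a single Bhlhe41 read. The balance of the cryptochromes depended on time. Cry1 over Cry2, as a ratio of FPKM within a mouse, averaged 0.264 ± 0.064 at ZT0, 1.25 ± 0.15 at ZT6, 1.96 ± 0.21 at ZT12 and 1.15 ± 0.20 at ZT18 in SL. In LL it averaged 1.85 ± 0.25 at ZT0, 0.615 ± 0.080 at ZT6, 0.494 ± 0.115 at ZT12 and 1.59 ± 0.29 at ZT18. Per length, Cry1 was the more abundant cryptochrome transcript in 19 of 32 mice, among them all SL mice at ZT6 and ZT12 and all LL mice at ZT18 and ZT0. This side of 1 rests on merged exon lengths of 3340 bases for Cry1 and 6320 for Cry2, and the isoforms present were not measured. Without the lengths, mean Cry1 was below mean Cry2 in SL at ZT6 (34.8 against 52.6 CPM) and in LL at ZT18 (44.3 against 53.3 CPM). Cry1 and Cry2 were close in SL at ZT12 (49.3 against 47.7 CPM) and in LL at ZT0 (36.9 against 37.8 CPM).

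**Figure D2:**
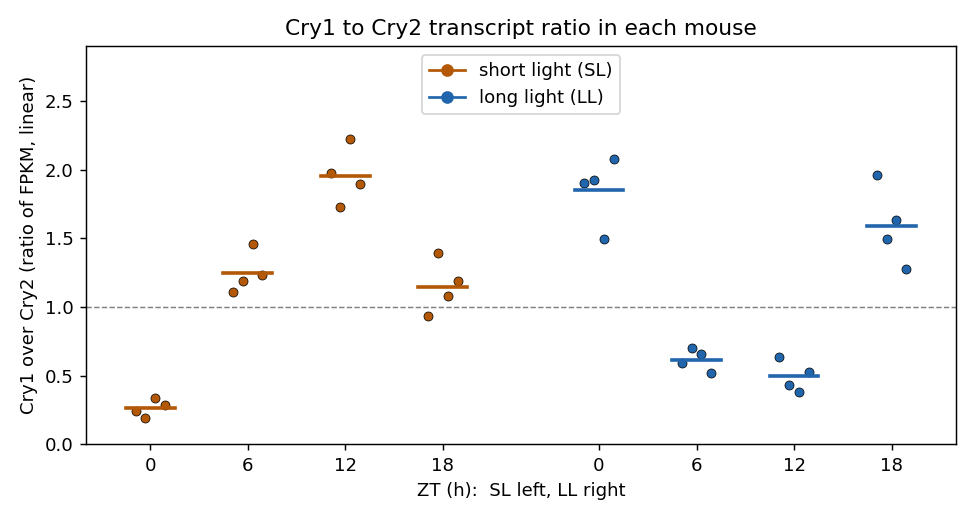
Ratio of Cry1 to Cry2 in FPKM (y axis, linear) for each mouse against ZT in hours, SL times left of LL times; points are mice, bars are group means and the dashed line marks equal FPKM. The ratio is below 1 in all SL mice at ZT0 (0.188 to 0.338) and above 1 in all LL mice at ZT0 (1.49 to 2.08).

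The first comparison asked how the repressors differed between SL and LL at the same ZT. "Called" means an adjusted p below 0.05 from edgeR's quasi-likelihood test with Benjamini-Hochberg adjustment over all 14456 tested genes, and differences are log2 fold changes, SL minus LL, ± SE. At ZT0 5 of 5 repressors were called, where 11% of all tested genes were. Here and below, such counts include Bhlhe41, which passed the filter on low counts through SL ZT0 and LL ZT12. Its calls that use these groups are therefore not independent of the filter, and in LL at ZT0 it had 2 to 8 reads per library. Ciart was 29.1-fold higher in SL (4.86 ± 0.50, adjusted p = 3.18e-08) and Bhlhe41 16.1-fold higher (4.01 ± 0.48, adjusted p = 5.42e-07), with no overlap of mice. Bhlhe40 (1.07 ± 0.27, adjusted p = 0.00796) and Cry2 (0.75 ± 0.10, adjusted p = 2.77e-06) were also higher in SL, whereas Cry1 was 4.19-fold lower (-2.07 ± 0.15, adjusted p = 3.75e-11). For Bhlhe40 the ranges overlapped, with 130 to 348 CPM in SL and 81.9 to 145 CPM in LL, and without SL ZT0 replicate 2 the difference was 0.78 with an adjusted p of 0.0609 by the same edgeR test.

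At the next time Cry1 lay on the other side. At ZT6 3 of 5 were called, all higher in SL, against 15.3% of all genes. These were Ciart (2.54 ± 0.41, adjusted p = 4.57e-05), Cry1 (1.34 ± 0.14, adjusted p = 5.35e-08) and Cry2 (0.31 ± 0.10, adjusted p = 0.0304). Cry2 was not called when any of SL ZT6 replicate 2, SL ZT6 replicate 3 or LL ZT6 replicate 3 was left out (adjusted p 0.0816 to 0.144) or with no filter on low counts (0.0528). Bhlhe40 stood at 0.75 ± 0.27 with an adjusted p of 0.0549, which fell below the threshold with no filter, in a fit on the 2 groups alone and without any 1 of 6 libraries (adjusted p 0.00783 to 0.0489). Bhlhe41 gave -0.54 ± 0.51, with an interval of -1.59 to 0.50.

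At ZT12 3 of 5 were called, against 12.4% of all genes. Cry1 was 3.44-fold higher in SL (1.78 ± 0.14, adjusted p = 1.76e-10), and Ciart was 26.4-fold lower (-4.72 ± 0.49, adjusted p = 4.56e-08) and Bhlhe41 6.54-fold lower (-2.71 ± 0.55, adjusted p = 0.000846). Without LL ZT12 replicate 3 these values were 1.63, -4.12 and -2.34, with adjusted p of 3.29e-10, 6.61e-08 and 0.00603. Cry2 gave -0.21 ± 0.10 (adjusted p = 0.164) and Bhlhe40 -0.40 ± 0.27 (adjusted p = 0.368).

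ZT18 was the time at which the called repressors were all lower in SL, with 4 of 5 called against 9.21% of all genes. Bhlhe40 fell by 1.29 ± 0.27 (adjusted p = 0.00195), Cry1 by 1.04 ± 0.14 (adjusted p = 4e-06), Cry2 by 0.57 ± 0.10 (adjusted p = 0.000202) and Ciart by 1.89 ± 0.51 (adjusted p = 0.0141). Bhlhe41 gave -0.37 ± 0.61. Ciart rested on 9 to 32 reads per SL library here and was not called by limma-voom (adjusted p = 0.0709) or without SL ZT18 replicate 2, SL ZT18 replicate 4 or LL ZT18 replicate 3 (0.0556, 0.0590 and 0.0547). Without LL ZT18 replicate 3, the library with the most muscle RNA, Bhlhe40 gave -1.35 with an adjusted p of 0.00348.

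**Figure D3:**
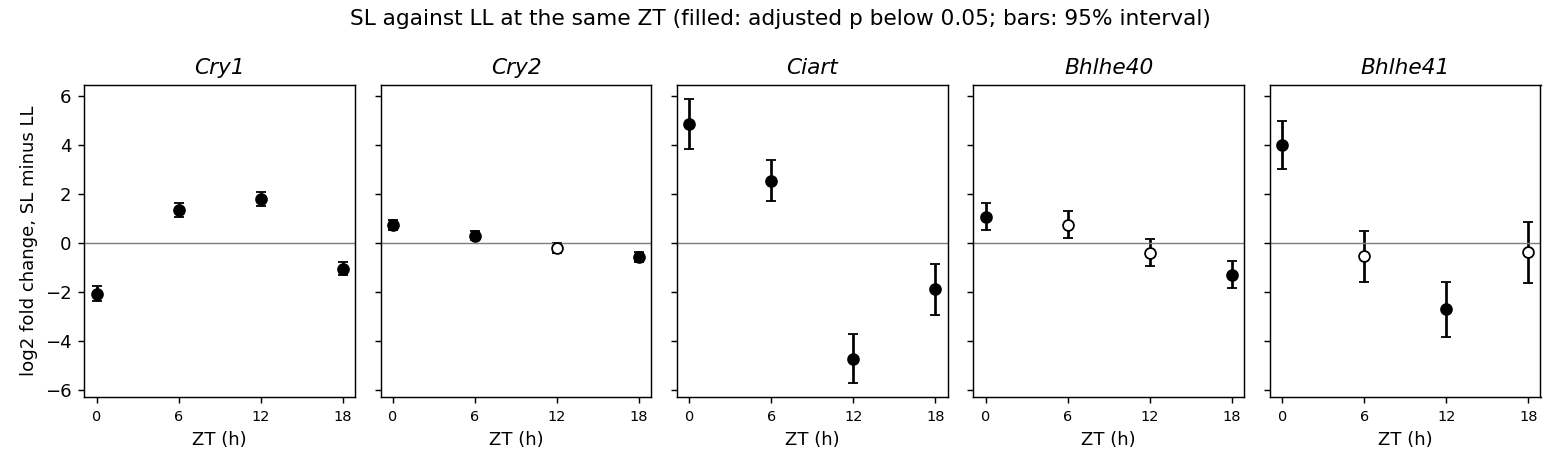
Log2 fold change, SL minus LL (y axis), at each ZT in hours (x axis) for the 5 repressors; bars are 95% intervals and filled points have an edgeR adjusted p below 0.05. Cry1 is below 0 at ZT0 and ZT18 and above 0 at ZT6 and ZT12, whereas Ciart is above 0 at ZT0 and ZT6 and below 0 at ZT12 and ZT18.

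Averaged over the 4 ZTs, the photoperiods were close. None of the 5 was called in the mean difference, in which 0% of all genes were called by edgeR, with 730 genes at an unadjusted p under 0.05 and 6 called by DESeq2. Mean differences were 0.00 ± 0.07 for Cry1 (95% interval -0.14 to 0.15), 0.07 ± 0.05 for Cry2 (-0.03 to 0.17), 0.20 ± 0.26 for Ciart (-0.34 to 0.73), 0.03 ± 0.13 for Bhlhe40 (-0.24 to 0.31) and 0.10 ± 0.31 for Bhlhe41 (-0.53 to 0.72). The interaction tests whether the photoperiod difference depends on ZT. It was called for 5 of 5, Bhlhe41 with its filter limit included, with 32.7% of all genes called. Its edgeR adjusted p was 1.87e-15 for Cry1, 7.08e-12 for Ciart, 4.12e-08 for Cry2, 9.87e-08 for Bhlhe41 and 3.26e-05 for Bhlhe40, and these calls held in every alternative that kept the gene.

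The second comparison followed each repressor through the day, and its counts also include Bhlhe41 with its filter limit. Time of day was called for 5 of 5 in SL, where 19.1% of all genes were, with adjusted p between 1.99e-12 (Cry1) and 0.000392 (Bhlhe40). In LL it was also called for 5 of 5, where 18.3% of all genes were, with 4.02e-11 for Cry1, 6.17e-09 for Ciart, 2e-04 for Cry2, 0.00275 for Bhlhe41 and 0.0375 for Bhlhe40. The LL call of Bhlhe40 ended when any of 8 single libraries was left out (LL ZT0 replicates 1, 2 and 3, LL ZT6 replicates 3 and 4, LL ZT12 replicate 1, LL ZT18 replicates 1 and 4; adjusted p 0.0519 to 0.0772). That of Bhlhe41 stood at an adjusted p of 0.0316 without LL ZT12 replicate 3 and at 0.0921 with limma-voom.

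Successive SL samples showed Cry1 moving at every step. Between ZT0 and ZT6 it rose (1.98 ± 0.15, adjusted p = 6e-10) and Bhlhe41 fell (-3.57 ± 0.44, adjusted p = 2.62e-06), the 2 of 5 called at a step that called 8.16% of all genes. Between ZT6 and ZT12 Ciart fell (-4.09 ± 0.50, adjusted p = 1.12e-06) and Cry1 rose further (0.50 ± 0.13, adjusted p = 0.0121), against 10.1% of all genes. This Cry1 rise was not called without SL ZT6 replicate 1 (adjusted p = 0.0560) or SL ZT12 replicate 3 (0.0530).

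The step between ZT12 and ZT18 in SL called 0.699% of all genes and 2 of 5 repressors, both of them cryptochromes that fell. Cry1 changed by -1.198 ± 0.14 (adjusted p = 3.46e-06) and Cry2 by -0.41 ± 0.10 (adjusted p = 0.0402), though Cry2 was not called without any 1 of 8 libraries (adjusted p 0.0512 to 0.189), namely SL ZT12 replicates 1 to 4, SL ZT18 replicates 2, 3 and 4 and LL ZT0 replicate 4. Bhlhe40 gave -0.87 ± 0.27 at this step, with an adjusted p of 0.168, and it was called with no filter (0.0181) and in a fit on the 2 groups alone (0.0470). Over the step that closes the cycle, ZT0 against ZT18, 5 of 5 were called with 7.16% of all genes. Ciart (4.51 ± 0.46), Bhlhe41 (4.07 ± 0.46), Bhlhe40 (1.604 ± 0.27) and Cry2 (0.83 ± 0.10) were higher at ZT0, and Cry1 was lower (-1.29 ± 0.15), with adjusted p between 3.81e-08 and 0.000165.

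In LL the steps fell at other times. Between ZT0 and ZT6 Cry1 fell (-1.43 ± 0.14, adjusted p = 1.21e-07), the 1 of 5 called with 1.56% of all genes. Between ZT6 and ZT12 Ciart rose (3.17 ± 0.41, adjusted p = 2.78e-06) and Cry2 rose (0.37 ± 0.10, adjusted p = 0.0113), Cry2 not in a fit on the 2 groups alone (0.178) or without LL ZT6 replicate 3 (0.0660) or LL ZT12 replicate 2 (0.0525), and 9.75% of all genes were called. Between ZT12 and ZT18 Cry1 rose (1.63 ± 0.14, adjusted p = 1.18e-08) while Ciart (-2.53 ± 0.39, adjusted p = 0.000104) and Bhlhe41 (-1.92 ± 0.48, adjusted p = 0.0139) fell, against 6.12% of all genes. Bhlhe41 was not called here without LL ZT12 replicate 3 (-1.54, adjusted p = 0.0698) or with limma-voom (-1.79, adjusted p = 0.0933). Without LL ZT12 replicate 3, Cry1 rose by 1.48 and Ciart changed by -1.92. The Ciart rise between ZT6 and ZT12 was then 2.59, and edgeR still called each of these. ZT0 against ZT18 called 4.88% of all genes and 2 of 5 repressors, Cry2 (-0.50 ± 0.10, adjusted p = 0.00199) and Ciart (-2.24 ± 0.55, adjusted p = 0.0124), the second not without LL ZT0 replicate 1 (0.0580) or with limma-voom (0.111).

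A 24 h cosine wave fitted to log2 CPM at the 4 times gave the amplitude (mean to peak, log2) and the peak time of each transcript. In both photoperiods the fitted peaks came in the order Bhlhe41, Ciart, Cry2, Bhlhe40 and Cry1. Bhlhe41 peaked at 0.47 ± 0.44 h in SL livers and at 11.1 ± 0.86 h in LL livers, and Ciart at 2.53 ± 0.29 h in SL livers and 12.6 ± 0.38 h in LL livers. Cry2 peaked at 3.57 ± 0.54 h in SL livers and 14.1 ± 0.59 h in LL livers, and Bhlhe40 at 4.19 ± 0.77 h in SL livers and 14.9 ± 1.07 h in LL livers. Cry1 peaked last, at 10.98 ± 0.22 h in SL livers and 20.6 ± 0.26 h in LL livers. Cry2 and Bhlhe40 lay within their errors of each other in both photoperiods, whereas the order of the other neighbours was not tested. Errors of peak time come from the spread within groups and leave out any misfit of the wave. In SL the observed means of Cry2 and Bhlhe40 were highest at ZT0, ahead of their fitted peaks. Cry2 had 63.7 CPM at ZT0 and 52.6 CPM at ZT6, and Bhlhe40 had 225 and 182 CPM. Cry1 stood apart, 6.79 h after its nearest neighbour Bhlhe40 in SL and 5.69 h after it in LL. Its lag after Ciart was 8.45 h in SL and 8.06 h in LL. In log2 units the wave left most unfitted for Bhlhe41 in SL, whose term alternating between successive times was 0.69, against -0.20 to 0.28 for the other 9 curves. Set beside the SL amplitude, the term was 0.69 to 1.91 for Bhlhe41, 0.17 to 0.34 for Cry2 and 0.28 to 0.73 for Bhlhe40. Relative to amplitude, the SL fits of Cry2 and Bhlhe40 were thus no better than that of Bhlhe41.

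**Figure D4:**
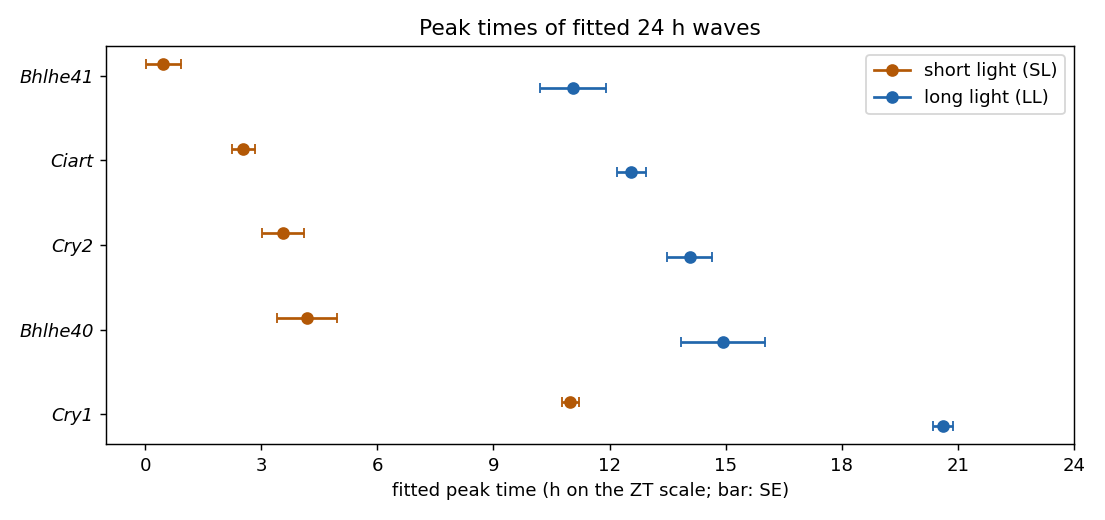
Fitted peak time in hours on the ZT scale (x axis) for each repressor (y axis, ordered by SL peak), with SL above LL; bars are SEs. Every LL point lies right of the SL point of the same gene, with SL minus LL differences between -9.64 h for Cry1 and -10.7 h for Bhlhe40.

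The difference in peak time, SL minus LL on the ZT scale, was -9.64 h for Cry1 (95% interval -10.3 to -8.94 h), -10.03 h for Ciart (-11.03 to -9.04 h) and -10.5 h for Cry2 (-12.1 to -8.85 h). For Bhlhe41 it was -10.6 h (-12.6 to -8.59 h) and for Bhlhe40 -10.7 h (-13.5 to -8.01 h), and all 5 intervals overlap. These intervals also leave out any misfit of the wave. On a 24 h cycle, such an SL lead and the complementary SL lag describe the same curves. The difference in 24 h rhythm was called for 5 of 5, as it was for 36% of all genes, with edgeR adjusted p between 5e-16 (Cry1) and 2.1e-05 (Bhlhe40). Bhlhe41 is among these 5 with its filter limit.

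Fitted amplitudes were larger in SL than in LL for each of the 5, by differing margins. Bhlhe41 had 1.91 in SL and 0.99 in LL (SE 0.22 each), a difference of 0.92 with a 95% interval of 0.27 to 1.57. This value rests on SL ZT0 set against SL times with 1 to 11 reads per library, in a gene that passed the filter through its high groups. In log2 units the wave also left most unfitted in its SL curve, so the difference is given as a description. Ciart had 2.98 and 2.28 (SE 0.23 each), a difference of 0.70 (0.03 to 1.37), and this interval held 0 in 13 of the 32 fits with a library left out (SL ZT0 replicates 1 and 2, SL ZT6 replicates 2 and 4, SL ZT12 replicates 2 and 4, SL ZT18 replicates 2 and 4, LL ZT0 replicates 2 and 4, LL ZT12 replicates 1, 2 and 4). Its observed highest over lowest group means were 27.8-fold in SL and 28.5-fold in LL, where the waves gave 62.1-fold and 23.6-fold. Low Ciart values rested on 6 to 32 reads per library in SL and 7 to 22 in LL, so this difference is also given as a description. Without LL ZT12 replicate 3 the differences were 1.04 (0.39 to 1.70) for Bhlhe41 and 0.89 (0.25 to 1.53) for Ciart. The interval held 0 for Cry1 (1.29 and 1.09, difference 0.20, -0.01 to 0.42), Bhlhe40 (0.73 and 0.52, difference 0.20, -0.23 to 0.63) and Cry2 (0.34 and 0.31, difference 0.03, -0.11 to 0.17), and for Cry1 it was above 0 in 5 of the 32 fits, without SL ZT0 replicate 3, SL ZT12 replicate 2, LL ZT0 replicate 4, LL ZT18 replicate 1 or LL ZT12 replicate 3 (the last 0.26, 0.08 to 0.44).

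The third comparison set each SL group against the LL group sampled 12 h later on the ZT scale, an offset chosen with earlier results of these data known, and it uses the same libraries as the same-ZT comparisons. At SL ZT0 minus LL ZT12, which called 0.0346% of all genes, none of the 5 was called. Closest were Bhlhe41 (1.78 ± 0.37, adjusted p = 0.0616), with means of 5.99 ± 3.82 CPM in SL and 1.71 ± 0.76 CPM in LL, and Cry1 (-0.70 ± 0.15, adjusted p = 0.0631). Without LL ZT12 replicate 3 both were called (2.15 and -0.85, adjusted p = 0.0230 and 0.00890), and so they were without SL ZT0 replicate 3 (0.00571 and 0.0354), by DESeq2 (0.0154 and 0.00490) and with no filter. SL ZT6 minus LL ZT18 called 0.443% of all genes and 1 of 5, Ciart (1.90 ± 0.39, adjusted p = 0.0232), with 8.44 to 25.4 CPM in SL and 3.37 to 6.15 CPM in LL. That call ended with limma-voom, in a fit on the 2 groups alone, with limma on the authors' log2 values and without SL ZT6 replicates 1, 2 or 4 or LL ZT18 replicates 1 or 2 (adjusted p 0.0536 to 0.126).

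SL ZT12 minus LL ZT0 called 0.00692% of all genes and none of the 5. Cry1 gave 0.41 ± 0.13 (adjusted p = 0.650), with means of 49.3 ± 4.83 CPM in SL and 36.9 ± 4.76 CPM in LL. Cry2 gave 0.34 ± 0.10 (adjusted p = 0.623), with 47.7 ± 1.78 CPM in SL and 37.8 ± 2.11 CPM in LL. Ciart had 0.99 ± 0.49 CPM in SL livers and 0.91 ± 0.34 CPM in LL livers. At SL ZT18 minus LL ZT6, with 0.0553% of all genes called, none of the 5 was called, and Cry1 gave 0.64 ± 0.14 (adjusted p = 0.0800), with 20.4 to 23.3 CPM in SL and 12.5 to 16.1 CPM in LL. Cry1 was called at this pair by DESeq2 (0.0103), with no filter (0.0106), without LL ZT12 replicate 3 (0.0123) and without SL ZT6 replicate 3 (0.0418). Whether the 4 offset differences of a gene differed from each other was called for 1 of 5, Cry1 (adjusted p = 0.000556), against 0.519% of all genes, and this held in every alternative run (adjusted p 1.01e-08 to 0.00193). The other adjusted p were 0.0529 for Ciart, 0.0888 for Bhlhe41, 0.108 for Cry2 and 0.598 for Bhlhe40. DESeq2 called Ciart, Bhlhe41 and Cry2 as well (0.00741, 0.0167 and 0.0321), no filter called Ciart and Bhlhe41, and without LL ZT12 replicate 3 so did edgeR (0.0114 and 0.0278).

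**Figure D5:**
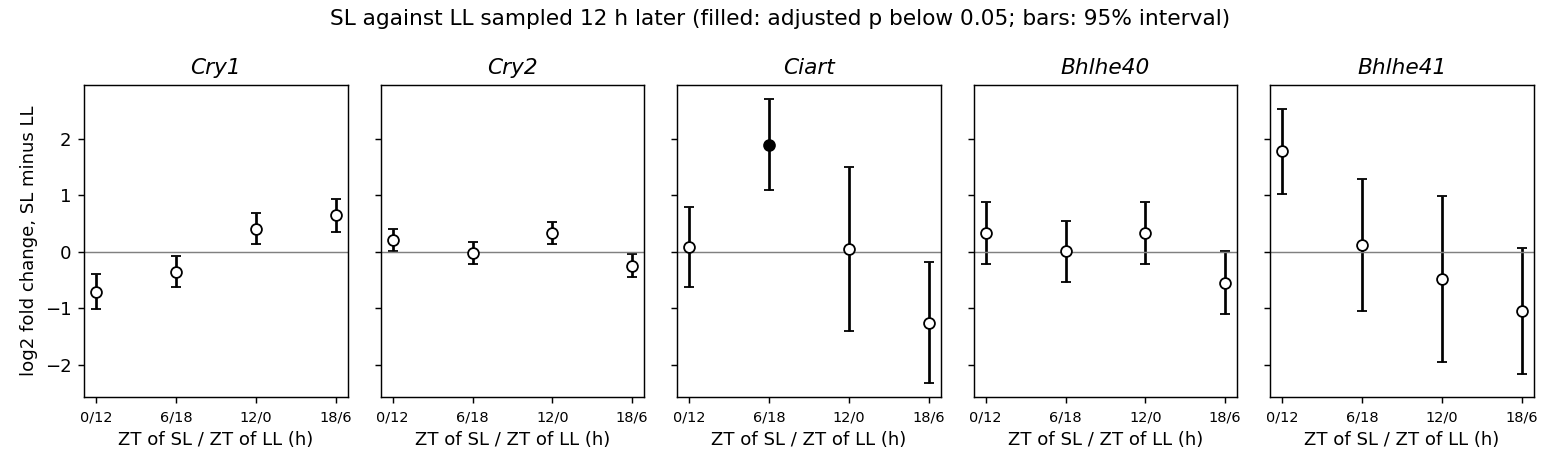
Log2 fold change, SL minus LL taken 12 h later (y axis), for the 4 pairs of ZTs in hours (x axis, SL time before LL time); bars are 95% intervals and filled points have an edgeR adjusted p below 0.05. Cry1 runs between -0.70 and 0.64 over the pairs, and the one filled point is Ciart at SL ZT6 against LL ZT18 (1.90).

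Among the other 14 genes of the clock loop, 13 were called in the interaction, beside 32.7% of all genes, with Rora (adjusted p = 0.383) the exception. At ZT0 13 of 14 were called, beside 11% of all genes, 8 higher and 5 lower in SL, and the median over the list was 0.90 against 0.00 over all genes. At ZT12 13 were called, beside 12.4% of all genes, 5 higher and 8 lower, with a list median of -0.59 against -0.01. At ZT6 there were 6 higher and 2 lower, beside 15.3% of all genes, and at ZT18 2 higher and 5 lower, beside 9.21%. Values are given for Tef, Per3 and Npas2, which were among those with the smallest interaction p. Per3, whose product belongs to the PER family, had means of 103, 62.1, 13.5 and 7.44 CPM in SL and 6.73, 31.8, 105 and 39.2 CPM in LL from ZT0 through ZT18. Tef, a D-box activator gene, had 307, 226, 91.3 and 73.1 CPM in SL and 66.1, 130, 306 and 178 CPM in LL. Npas2, an activator gene, had 0.171, 0.0501, 10.4 and 10.2 CPM in SL and 14.03, 3.07, 0.130 and 0.764 CPM in LL. In the offset interaction 8 of these 14 were called, beside 0.519% of all genes.

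Of genes for the turnover and modification of CRY and PER proteins, 5 of 16 tested (17 listed) were called in the interaction, which is near the share of all genes. Usp2, a deubiquitinase gene, had the widest change among them, with 32.0, 43.3, 5.41 and 1.58 CPM in SL and 3.11, 3.04, 41.0 and 22.5 CPM in LL. Btrc, a ubiquitin ligase subunit gene, was higher in SL at ZT0 (0.30 ± 0.08, adjusted p = 0.0175) and ZT18 (0.49 ± 0.08, adjusted p = 0.00018) and lower at ZT6 (-0.42 ± 0.08). Cul1, a ligase scaffold gene, was lower in SL at ZT0 (-0.30 ± 0.07, adjusted p = 0.00265) and higher at ZT12 (0.28 ± 0.07).

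Corepressor genes gave 3 of 9 in the interaction, Hdac3, Ehmt2 and Tbl1xr1, a share near the 32.7% of all genes. Hdac3, a histone deacetylase gene, was higher in SL at ZT0 (0.24 ± 0.08, adjusted p = 0.0381) and lower at ZT12 (-0.29 ± 0.08, adjusted p = 0.0114). In the list for glucagon and glucocorticoid signalling and gluconeogenesis 5 of 10 were called in the interaction, beside 32.7% of all genes, namely Pck1, Ppargc1a, Tat, Fbp1 and Gcgr. Pck1, the gene of a rate-controlling gluconeogenic enzyme, was higher in SL at ZT0 (0.88 ± 0.23, adjusted p = 0.00853) and ZT6 (1.11 ± 0.23) and lower at ZT12 (-1.31 ± 0.23). The count of single-time calls for that list was 1 higher at ZT0, 1 higher at ZT6, 2 lower at ZT12 and 1 lower at ZT18, near the shares of all genes at these times (11%, 15.3%, 12.4% and 9.21%).

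The hypoxia list gave 4 of 8 tested (9 listed) in the interaction, Bnip3, Egln3, Vegfa and Epas1, beside 32.7% of all genes. Bnip3, a mitophagy receptor gene, was higher in SL at ZT6 (1.04 ± 0.10) and lower at ZT18 (-0.92 ± 0.10). Egln3, the gene of an oxygen-sensing hydroxylase, was lower in SL at ZT6 (-0.62 ± 0.16, adjusted p = 0.00765) and higher at ZT18 (0.86 ± 0.16, adjusted p = 0.00059), the opposite sides from Bnip3. Vegfa was higher in SL at ZT0 (0.54 ± 0.12, adjusted p = 0.00256) and lower at ZT12 (-0.50 ± 0.12).

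Likeness of pattern was taken as Pearson's r of mean log2 CPM over the 8 groups, a description over means that share libraries, among 11474 genes with a mean of at least 1 CPM. Between the repressors, Cry2 was most like Bhlhe40 (r = 0.967) and Cry1 ran opposite to Bhlhe41 (r = -0.844). The genes most like Cry1 were Ccng2 (0.982), Zbtb21 (0.981) and Tmem33 (0.981), and the most opposite was Gnat1 (-0.990). For Cry2 they were Hdac4 (0.978), Ipo5 (0.978) and C2 (0.974), with Rnft1 opposite (-0.987). For Ciart they were Coq10b (0.992), Acss2 (0.986) and Optn (0.986), with B3gat3 opposite (-0.995). For Bhlhe40 they were Wee1 (0.987), Hdac4 (0.979) and Maff (0.977), with N4bp3 opposite (-0.993), and for Bhlhe41 Rnf19b (0.979), Klrk1 (0.977) and Epha1 (0.969), with Net1 opposite (-0.973).

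Markers of other cells were summed beside these values, and their calls stand beside the 32.7% of all genes called in the interaction. Kupffer cell markers summed to 334 to 449 CPM over the groups, with 0 of 11 called in the interaction by edgeR, and stellate cell markers to 240 to 277 CPM, with 1 of 8 called. Sinusoidal endothelial markers summed to 361 to 434 CPM, with 4 of 8 called, and cholangiocyte markers to 34.7 to 45.2 CPM, with 1 of 5 tested called and the most in LL ZT12 replicate 3 (63.8 CPM). Red blood cell markers summed to 345 to 383 CPM with 0 of 4 called, and lymphocyte and adipocyte markers stayed at or below 2.07 CPM. The part of these cells in the repressor values was not tested.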

How the data were processed

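The labels' protocols describe polyadenylated liver RNA of 32 mice and a kit that marks strand. The submitters' processing notes name featureCounts 1.6.2, STAR 2.7.2b and bcl2fastq 2.20.0 and the build GRCm38 (mm10), and the counting's annotation and strand setting are not given in sources used here. The authors deposited raw counts per gene for 55471 genes, of which 32791 had a read, and a table of log2 values for 13432 genes. For the shared genes the deposited log2 values lay within 0.0213 of log2 CPM from the counts, so they served only as an alternative. Every column matched 1 sample. Total counts of 9095615 to 27462776 set the precision, which is poor for Bhlhe41 (633 reads in all).

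Library sizes were adjusted by the trimmed mean of M values (TMM) in edgeR 4.0.16 (R 4.3.3), filtered with filterByExpr by group, and tested with the quasi-likelihood F-test in 1 fit of the 8 group means over all 32 libraries. Benjamini-Hochberg adjustment ran over 14456 genes at a threshold of 0.05, separately for each of 22 contrasts. Waves of 24 h were fitted to log2 CPM (prior count 2) with errors from the spread within groups (24 degrees of freedom). FPKM used merged exon lengths of GENCODE M21, and start regions came from RefSeq (GRCm38.p6).

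The 5 repressors, the 5 pathway lists, the marker lists, the 12 h offset and the tests were chosen with earlier results of these data known. All 5 were named in every comparison, list genes by the smallest interaction p (Rora was named after its values were seen, and some results are not reported here), and like genes by the 3 highest and the lowest r. Alternatives were DESeq2 1.42.0 and its size factors, limma-voom (limma 3.58.1), scaling that leaves out mitochondrial transcripts and the 20 most abundant genes, no filter, a stricter filter, fits on the compared groups alone, the replicate number as a block, other prior counts and each library left out, and limma on the authors' log2 values, added after seeing the data. The procedure was tested on simulated counts. Within groups, 48 pairs of libraries were compared and none agreed within counting noise. The design text gives 32 mice for 32 libraries, so the replicate spread is that between mice.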

Additional observations from a re-analysis of the deposited data

Results flagged for a closer look

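Bhlhe41 in LL ZT12 replicate 3 (2.84 CPM) lay far from its 3 group mates, at 1.202 to 1.40 CPM. Each of the 5 genes was checked in each of the 8 groups, 40 sets of 4 values that share the same mice. Such a gap was seen in 1 of the 40, where chance gives about 5%, so a single flag is not unusual. The same library held 51.9 CPM of Ciart, against 13.4 to 20.8 CPM in its mates, and 9.70 CPM of Cry1, against 14.6 to 16.8 CPM.

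The SL minus LL difference changed with ZT for all 5 repressors, among them Bhlhe41, which passed the filter on low counts through its high groups. The edgeR adjusted p of the interaction was 1.87e-15 for Cry1, 4.12e-08 for Cry2, 7.08e-12 for Ciart, 3.26e-05 for Bhlhe40 and 9.87e-08 for Bhlhe41.

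For Cry1 the difference between SL and LL sampled 12 h later also changed over the 4 pairs of times (edgeR adjusted p = 0.000556).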

How the results depend on the processing

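No result reversed. Of 898 counts of called repressors over all alternatives 852 stayed within 1.5 times the main count, and of 3441 log2 fold changes 3376 kept their side of the threshold, with 35 lost and 30 gained calls. For adjusted p of the tests over several times, 979 of 1000 kept their side, 9 were lost and 12 gained. Wave amplitudes and FPKM moved by less than 1 SD between mice throughout, and peak times by less than that SD converted to hours. Leaving out 1 of 4 mice can hardly exceed so wide a margin, so nothing is concluded from it. With 1 library left out, the SL minus LL peak difference ran from -9.755 to -9.387 h for Cry1 and from -11.24 to -10.13 h for Bhlhe40. Counts of called repressors moved as follows, the cause not being tested unless the setting removes a gene. SL ZT6 minus ZT0 had 1 in place of 2 with the stricter filter and on the authors' log2 values, both of which lack Bhlhe41. LL ZT6 minus ZT0 had 2 in place of 1 with DESeq2 and no filter. LL ZT12 minus ZT6 had 4 in place of 2 with no filter and 1 in a fit on the groups alone, and LL ZT0 minus ZT18 had 1 in place of 2 with limma-voom. At SL ZT0 minus LL ZT12 there were 2 in place of 0 with DESeq2 and no filter and 1 on the authors' log2 values. At SL ZT6 minus LL ZT18 there were 0 in place of 1 with limma-voom, the groups alone and the authors' log2 values, and at SL ZT18 minus LL ZT6 1 in place of 0 with DESeq2 and no filter. The offset interaction had 4 in place of 1 with DESeq2 and 3 with no filter. With 1 library left out, counts ranged over 1 to 2 (SL ZT12 minus ZT6, SL ZT18 minus ZT12, LL ZT0 minus ZT18), 1 to 3 (LL ZT12 minus ZT6, offset interaction), 0 to 2 (SL ZT0 minus LL ZT12) and 0 to 1 (SL ZT6 minus LL ZT18, SL ZT18 minus LL ZT6). No pairing by replicate number was seen on average. Deviations of same-numbered mice correlated at a mean r of -0.000292 in 112 pairs (-0.263 to 0.243). Those of mice with different numbers had a mean r of 9.09e-05 in 336 pairs (-0.315 to 0.281). A mean over pairs cannot exclude a pairing limited to some genes or groups. With the replicate number as a block, SL ZT18 minus ZT12 had 1 called repressor in place of 2 (Cry2 adjusted p = 0.0529), and no other count of called repressors changed. Over all genes, a fit on the groups compared alone called 739 in place of 1799 at ZT12, 1658 in place of 2650 for time of day in LL, 300 in place of 101 at SL ZT18 minus ZT12, 388 in place of 1410 at LL ZT12 minus ZT6 and 182 in place of 885 at LL ZT18 minus ZT12. DESeq2 called 181 at SL ZT18 minus ZT12, 344 in place of 225 at LL ZT6 minus ZT0, 228 in place of 75 in the offset interaction (250 with no filter) and 6 in place of 0 in the mean of the ZTs (9 with no filter). With 1 library left out, the counts ran from 52 to 226 at SL ZT18 minus ZT12, 104 to 434 at LL ZT6 minus ZT0, 454 to 1273 at LL ZT0 minus ZT18 (in place of 706), 707 to 1872 (in place of 1180) at SL ZT6 minus ZT0, 556 to 1063 at LL ZT18 minus ZT12, 55 to 151 in the offset interaction and 0 to 3 in the mean of the ZTs. Over all alternatives the offset pairs called 0 to 65 in place of 5, 0 to 155 in place of 64, 0 to 11 in place of 1 and 1 to 30 in place of 8, in the order of SL time. Depth limits Bhlhe41 most, at 1 to 24 reads per library outside SL ZT0 and LL ZT12.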
